A study of Mus musculus with 12 samples.

Results

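The 10 genes described here mark the endothelial cells of lung capillaries and veins. They were taken by symbol from 55414 genes in the expression table, and were chosen as known markers of these cells, with earlier results of these data in view. The aerocyte markers were Car4, Ednrb, Apln, Fibin and Tbx2. The general capillary or venous markers were Gpihbp1, Aplnr, Plvap, Pecam1 and Vwf. All 10 were detected in all 12 lungs and were among the 15148 genes tested.

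RNA-seq was performed on whole lungs of LPS-treated mice, with 6 lungs of the genotype IL-10 B-WT against 6 of the genotype IL-10 B-KO, each lung being 1 library. IL-10 B-KO mice carried floxed Il10 alleles and Mb1-Cre, a Cre recombinase expressed from the Cd79a (Mb1) gene and therefore across the B cell lineage; the deletion was thus aimed at B cells, not at endothelium. All mice had a C57BL/6J background, IL-10 B-WT mice were the corresponding controls, and the age is not given in the sources used here; the labels name no day either, and day 4 is inferred from the scheme of this LPS model. There was no group without LPS, and lungs were excised after lavage with PBS, so the levels below are those of injured, lavaged lungs of both genotypes.

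The gas exchange surface of the mouse lung is lined by a mosaic of capillary endothelial cells. Aerocytes are large, flattened cells pressed against alveolar type 1 cells, and carry carbonic anhydrase 4, the endothelin receptor type B and apelin. General capillary cells carry the apelin receptor and the machinery of lipoprotein lipolysis, and can renew themselves and give rise to aerocytes after injury. Apelin from aerocytes and its receptor on general capillary cells therefore form a ligand and receptor pair between neighbouring cells.

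Proximal promoter sequence is shown for the 4 aerocyte markers that had an entry in the RefSeq promoter table of GRCm38.p6 (4 of the 10 genes matched), because the aerocyte markers are the genes most of the results turn on. The stretches hold no annotated exon and are written 5′ to 3′ on the strand of the gene. Those of Car4, Ednrb and Apln end at the base before the RefSeq start, and that of Fibin ends 190 bases before it, since the bases between are annotated as exon. They are chr11:84957504-84957753 (plus strand) for Car4, chr14:103843702-103843951 (minus strand) for Ednrb, chrX:48034854-48035103 (minus strand) for Apln and chr2:110362944-110363243 for the window of Fibin, of which the 60 bases at 110363184-110363243 (minus strand) lay outside exons. The Ednrb stretch lies inside the GENCODE span of that gene (chr14:103814625-103844402), whose start is farther upstream than the RefSeq start. By that annotation the Ednrb stretch is not upstream of the gene. Capitals mark AGGAA (or its reverse complement TTCCT), 1 form of the core letters of ETS factors, and the core letters of KLF factors (CACCC or GGGTG). Both are motifs of endothelial regulators. Other forms of the ETS core, such as the ggaa in ttccggaa of Car4, were not marked or counted.
Car4: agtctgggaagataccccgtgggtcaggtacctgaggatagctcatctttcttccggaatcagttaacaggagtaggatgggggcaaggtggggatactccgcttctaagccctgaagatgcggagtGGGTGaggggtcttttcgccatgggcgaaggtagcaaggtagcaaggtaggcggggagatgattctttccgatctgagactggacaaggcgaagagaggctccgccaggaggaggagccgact
Ednrb: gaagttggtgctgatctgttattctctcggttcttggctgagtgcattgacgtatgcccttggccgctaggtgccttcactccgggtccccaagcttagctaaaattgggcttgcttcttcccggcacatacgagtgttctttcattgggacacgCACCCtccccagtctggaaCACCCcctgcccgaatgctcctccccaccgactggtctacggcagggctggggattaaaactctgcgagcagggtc
Apln: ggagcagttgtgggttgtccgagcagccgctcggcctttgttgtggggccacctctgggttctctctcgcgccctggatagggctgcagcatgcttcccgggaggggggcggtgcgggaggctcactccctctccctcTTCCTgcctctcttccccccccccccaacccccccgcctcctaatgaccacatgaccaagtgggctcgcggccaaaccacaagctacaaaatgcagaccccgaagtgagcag
Fibin: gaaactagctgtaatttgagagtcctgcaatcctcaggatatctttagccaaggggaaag
In the full windows of 300 bases (250 before to 50 after the start), the AGGAA form of the ETS core was found once in Apln and in none of the other 3. Of 32851 promoters of the same length, 66.7% held that form. The KLF core was found 3 times in Ednrb, once in Car4, once in Fibin and not in Apln, against 57.5% of all promoters with at least 1. The T-box core GGTGTGA (or TCACACC), the letters bound by the family of Tbx2, was in none of the 4 windows and in 3.98% of all. The SOX core ACAAT (or ATTGT) was likewise in none, against 31.0% of all promoters. These counts describe letters in a window and not binding. None of the forms searched was shared by all 4 windows, and no promoter of a general or venous marker was examined.

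Across the 10 markers, 9 had a lower mean in IL-10 B-KO lungs and 1, Vwf, had a higher mean. All 5 aerocyte markers were lower, with a median log2 fold change of -0.94, and 4 of 5 general or venous markers were lower, with a median of -0.36. Among all genes tested 36.8% had a log2 fold change below 0 and the median was 0.10. None of the 10 passed an adjusted p of 0.05 in limma (Benjamini-Hochberg over all genes tested), where 0.522% of all genes did, and their adjusted p ranged from 0.124 to 0.708. At an unadjusted p of at most 0.05, 5 markers were lower in IL-10 B-KO (Tbx2, Aplnr, Fibin, Ednrb and Apln), of which 4 were aerocyte markers, against 5.71% of all genes lower at that threshold. The genotypes overlapped for all 10 markers, while 1.02% of all genes tested had groups that did not overlap. Lower markers passed the adjusted p only in fits with other weights or without a lung. There were 2 with array weights (Tbx2 and Aplnr), where 3.56% of all genes were lower past it. There were 4 without IL-10 B-WT 1 (2.17% of all genes) and 1 without IL-10 B-KO 2 (0.753%). The count of 5 was sensitive to single lungs: it was 7 without IL-10 B-WT 1 or IL-10 B-KO 2, and 3 without IL-10 B-WT 4, 5 or 6 or IL-10 B-KO 3 or 6. In bulk lung RNA, fewer cells of a type and less RNA per cell cannot be told apart.

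**Figure D1:**
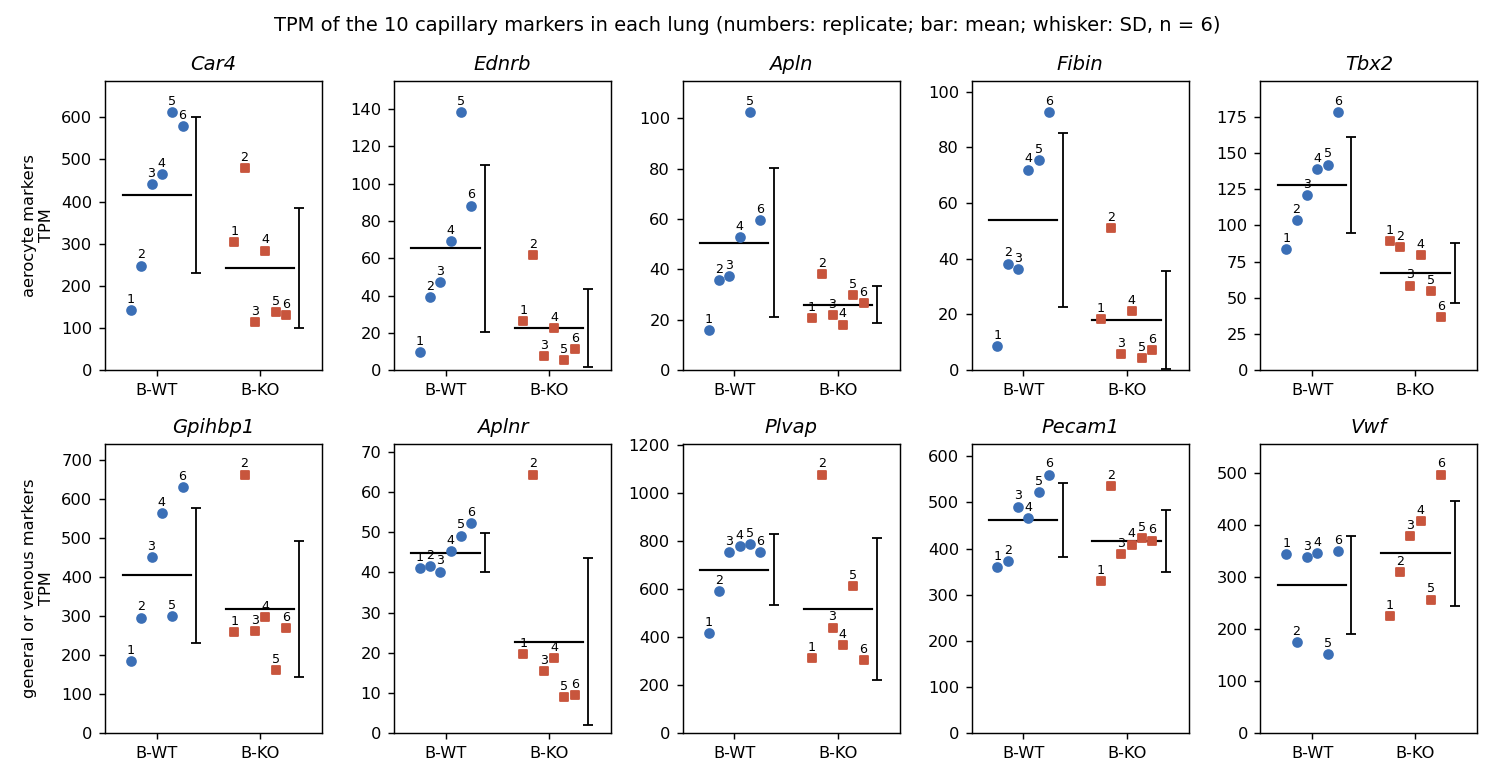
TPM (transcript abundance scaled by gene length and library total, vertical axis from 0) of each marker in each lung, with blue circles for IL-10 B-WT and red squares for IL-10 B-KO, the replicate number beside each point, a bar for the mean and a whisker for the SD (n = 6). IL-10 B-WT 1 is the lowest IL-10 B-WT lung in 8 of 10 panels, and IL-10 B-KO 2 is the highest IL-10 B-KO lung in 8 of 10.

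Tbx2 (ENSMUSG00000000093, chr11:85832551-85841948, plus strand) encodes a T-box transcription factor of aerocytes that is also made by lung mesenchyme. Its TPM in IL-10 B-WT lungs 1 to 6 was 83.4, 103, 121, 139, 142 and 178. In IL-10 B-KO lungs 1 to 6 it was 89.1, 84.9, 58.4, 79.6, 54.5 and 36.8. Of the IL-10 B-WT lungs, 5 lay above the highest IL-10 B-KO lung, and the groups overlapped only through IL-10 B-WT 1, which lay between IL-10 B-KO 4 and 2. The mean was 128 ± 33.03 (SD, n = 6) against 67.2 ± 20.5 (SD, n = 6). On the log2 scale the difference was -0.94 (SE 0.24, 95% CI -1.45 to -0.42), with an adjusted p of 0.124 in limma and an exact permutation p of 0.00649 (two-sided, over all arrangements of the lungs, smallest possible 0.00216). Tbx2 had the lowest p of the 10 markers. Without IL-10 B-WT 1 its adjusted p was 0.0361, and without other single lungs it was up to 0.323.

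Car4 (ENSMUSG00000000805, chr11:84957786-84966044, plus strand) encodes carbonic anhydrase 4, a membrane-anchored enzyme on the luminal face of aerocytes that speeds carbon dioxide exchange. It was the most abundant aerocyte marker. Its TPM in IL-10 B-WT lungs 1 to 6 was 143, 248, 441, 466, 612 and 579. Values in the IL-10 B-KO lungs 1 to 6 were 304, 479, 114, 283, 139 and 131. IL-10 B-KO 3, 5 and 6 lay below every IL-10 B-WT lung, whereas IL-10 B-KO 1, 2 and 4 lay within the IL-10 B-WT range. Its log2 fold change was -0.81 (SE 0.42), with an adjusted p of 0.444 in limma and an exact permutation p of 0.123. The range within a genotype was 4.29-fold in IL-10 B-WT and 4.20-fold in IL-10 B-KO, while the ratio of the means was 1.72.

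Ednrb (ENSMUSG00000022122, chr14:103814625-103844402, minus strand) encodes the endothelin receptor type B, which clears endothelin from the circulation and triggers nitric oxide release in endothelium. Its TPM in IL-10 B-WT lungs 1 to 6 was 9.51, 39.2, 47.3, 69.4, 138 and 88.2. The IL-10 B-KO lungs 1 to 6 had 26.1, 61.8, 7.68, 22.5, 5.55 and 11.3. Except for IL-10 B-KO 2, all IL-10 B-KO lungs lay below 5 of the 6 IL-10 B-WT lungs, and IL-10 B-WT 1 lay among the lowest IL-10 B-KO lungs. The log2 fold change was -1.55 (SE 0.63, 95% CI -2.91 to -0.20), with an adjusted p of 0.353 in limma and an exact permutation p of 0.0628. The range of Ednrb within IL-10 B-WT was 14.6-fold, which was the widest of any marker in either genotype. Without IL-10 B-WT 1 the log2 fold change was -2.01 and the adjusted p 0.0481. Without other single lungs the adjusted p was up to 0.662.

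Fibin (ENSMUSG00000074971, chr2:110360917-110363183, minus strand) encodes a secreted protein first described in fin bud development, and is used as an aerocyte marker. Its TPM in IL-10 B-WT lungs 1 to 6 was 8.54, 38.3, 36.3, 72.0, 75.4 and 92.7. For IL-10 B-KO lungs 1 to 6 the TPM was 18.3, 50.9, 5.81, 21.2, 4.29 and 7.18. The pattern over the lungs was that of Ednrb, with IL-10 B-WT 1 as well as IL-10 B-KO 2 on the side of the other genotype. On the log2 scale the difference was -1.69 (SE 0.62, 95% CI -3.03 to -0.35), with an adjusted p of 0.328 in limma and an exact permutation p of 0.0455. It was the largest difference among the 10 markers. Without IL-10 B-WT 1 the log2 fold change was -2.13 and the adjusted p 0.0422. Without other single lungs the adjusted p was up to 0.628.

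Apln (ENSMUSG00000037010, chrX:48025146-48034853, minus strand) encodes apelin, the peptide ligand that aerocytes secrete. Its TPM in IL-10 B-WT lungs 1 to 6 was 15.9, 35.7, 37.2, 52.9, 103 and 59.7. The 6 IL-10 B-KO lungs, in the same order, had 20.7, 38.2, 21.9, 18.1, 29.9 and 26.8. All 6 IL-10 B-KO lungs lay below the IL-10 B-WT median, and the lowest lung of all was IL-10 B-WT 1. Its log2 fold change was -0.78 (SE 0.35), with an adjusted p of 0.382 in limma and an exact permutation p of 0.0758. Apln had the narrowest spread of the aerocyte markers in IL-10 B-KO, where the highest lung was 2.11 times the lowest. Without IL-10 B-WT 1 the adjusted p was 0.0470, and without other single lungs it was up to 0.642.

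Aplnr (ENSMUSG00000044338, chr2:85136225-85139923, plus strand) encodes the receptor of apelin on general capillary cells. Its TPM in IL-10 B-WT lungs 1 to 6 was 41.2, 41.5, 40.2, 45.3, 49.2 and 52.3. In lungs 1 to 6 of IL-10 B-KO it was 19.7, 64.4, 15.4, 18.7, 9.01 and 9.41. In IL-10 B-KO, 5 lungs lay below every IL-10 B-WT lung and replicate 2 lay above every IL-10 B-WT lung. Aplnr was also the marker with the narrowest range in IL-10 B-WT, 1.30-fold, and IL-10 B-WT 1 did not stand apart there. The mean was 44.9 ± 4.91 (SD, n = 6) against 22.7 ± 20.9 (SD, n = 6). The log2 fold change was -1.28 (SE 0.37, 95% CI -2.06 to -0.49), with an adjusted p of 0.190 in limma and an exact permutation p of 0.0152. Without IL-10 B-KO 2 the log2 fold change was -1.63 and the adjusted p 0.00716. Without other single lungs the adjusted p was up to 0.430.

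Gpihbp1 (ENSMUSG00000022579, chr15:75596628-75599481, plus strand) encodes the protein that carries lipoprotein lipase across capillary endothelium and holds it at the lumen. Its TPM ranged from 184 to 632 with a median of 376 in IL-10 B-WT lungs. Among IL-10 B-KO lungs it ranged from 161 to 663 with a median of 265. The IL-10 B-KO range enclosed the IL-10 B-WT range, with IL-10 B-KO 2 as the highest lung of all. On the log2 scale the difference was -0.36 (95% CI -1.11 to 0.39), with an adjusted p of 0.654 in limma and an exact permutation p of 0.351.

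Plvap (ENSMUSG00000034845, chr8:71497765-71511752, minus strand) encodes the protein of the diaphragms that span endothelial caveolae and fenestrae, and was the most abundant of the 10 by mean in each genotype. Its TPM ranged from 415 to 787 with a median of 755 in IL-10 B-WT lungs. The IL-10 B-KO lungs ranged from 303 to 1076 with a median of 403. In IL-10 B-KO, 3 lungs lay below every IL-10 B-WT lung and IL-10 B-KO 2 above every one. Its log2 fold change was -0.51 (95% CI -1.16 to 0.13), with an adjusted p of 0.478 in limma and an exact permutation p of 0.156.

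Pecam1 (ENSMUSG00000020717, chr11:106654217-106750628, minus strand) encodes CD31, an adhesion protein at the junctions of all endothelial cells that platelets and leukocytes carry as well. Its TPM ranged from 360 to 560 with a median of 479 in IL-10 B-WT lungs. Across IL-10 B-KO lungs it ranged from 330 to 536 with a median of 413. The ranges were nearly the same, and only IL-10 B-KO 1 lay below the lowest IL-10 B-WT lung. The log2 fold change was -0.14 (95% CI -0.50 to 0.21), with an adjusted p of 0.708 in limma and an exact permutation p of 0.320.

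Vwf (ENSMUSG00000001930, chr6:125546774-125686679, plus strand) encodes von Willebrand factor, which veins, arteries and megakaryocytes store for haemostasis and which most capillary cells of the lung make little of. Its TPM ranged from 151 to 350 with a median of 342 in IL-10 B-WT lungs. In IL-10 B-KO lungs it ranged from 225 to 498 with a median of 344. IL-10 B-WT 2 and 5 lay below every IL-10 B-KO lung, IL-10 B-KO 3, 4 and 6 lay above every IL-10 B-WT lung, and the medians were close. On the log2 scale the difference was 0.31 (95% CI -0.27 to 0.89), with an adjusted p of 0.618 in limma and an exact permutation p of 0.307. Vwf was the only marker with a higher mean in IL-10 B-KO.

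The order of the levels differed between the genotypes. TPM is scaled by gene length, so levels of different genes can be set side by side. By mean TPM the order in IL-10 B-WT was Plvap 680, Pecam1 462, Car4 415, Gpihbp1 405, Vwf 284, Tbx2 128, Ednrb 65.3, Fibin 53.9, Apln 50.7 and Aplnr 44.9. In IL-10 B-KO it was Plvap 518, Pecam1 417, Vwf 346, Gpihbp1 319, Car4 242, Tbx2 67.2, Apln 25.9, Aplnr 22.7, Ednrb 22.5 and Fibin 18.0. Neighbours in this order were compared within lungs by an exact sign-flip permutation test, whose smallest possible p with 6 lungs is 0.0313. In IL-10 B-WT, Plvap was above Pecam1, Vwf above Tbx2 and Tbx2 above Ednrb in 6 of 6 lungs (p = 0.0313 each by the exact permutation test), and the other 6 steps did not pass 0.05. In IL-10 B-KO, Car4 was above Tbx2, Tbx2 above Apln and Ednrb above Fibin in 6 of 6 lungs (p = 0.0313 each by the exact permutation test), and the other 6 steps did not pass. The order was taken from the means of the same lungs, so these p describe the steps and do not test the order. They were not adjusted over the 18 steps. Car4 stood 2 places higher and Vwf 2 places lower in IL-10 B-WT than in IL-10 B-KO, but the steps around both did not exceed the spread between lungs in IL-10 B-WT for Car4 and Gpihbp1 (1 of 6 lungs with Car4 higher) or in IL-10 B-KO for Vwf and Gpihbp1 (4 of 6 lungs with Vwf higher).

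The next comparison asked whether the markers moved by more than endothelial genes as a group. Of 16 genes shared by most endothelial cells (such as Cdh5, VE-cadherin, and Cldn5, a tight junction protein), 15 were lower in IL-10 B-KO, with a median log2 fold change of -0.21 and 1, Eng, at an unadjusted p of at most 0.05. Their summed TPM ranged from 3348 to 7971 in IL-10 B-WT and from 3403 to 7304 in IL-10 B-KO. When the mean log2 level of these 16 genes was subtracted in each lung, the median of all genes tested moved to 0.36, and the differences that follow are relative to the endothelial genes. Fibin then differed by -1.43 (95% CI -2.46 to -0.39), Ednrb by -1.29 (95% CI -2.34 to -0.24), Aplnr by -1.02 (95% CI -1.71 to -0.32) and Tbx2 by -0.68 (95% CI -1.21 to -0.14) on the log2 scale. These 4 had an unadjusted p of at most 0.05, where 2.13% of all genes were lower. None of the 10 passed the adjusted p, which ranged from 0.497 to 0.812, and 0.29% of all genes were lower past it. Car4 (-0.55), Apln (-0.52), Plvap (-0.25) and Gpihbp1 (-0.10) had intervals that held 0, as did Pecam1 (0.12) and Vwf (0.57). Array quality weights were estimated for each fit, and on TPM they were 0.157 for IL-10 B-WT 5 and 2.48 for IL-10 B-WT 3. With weights estimated anew on the values relative to the endothelial genes, 8 markers were lower and Vwf was higher past the adjusted p. That fit called 10368 of 15148 genes, 565 of them lower (3.73%). Without IL-10 B-WT 1 there were 2 lower markers (Ednrb and Fibin), against 0.783% of all genes.

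**Figure D2:**
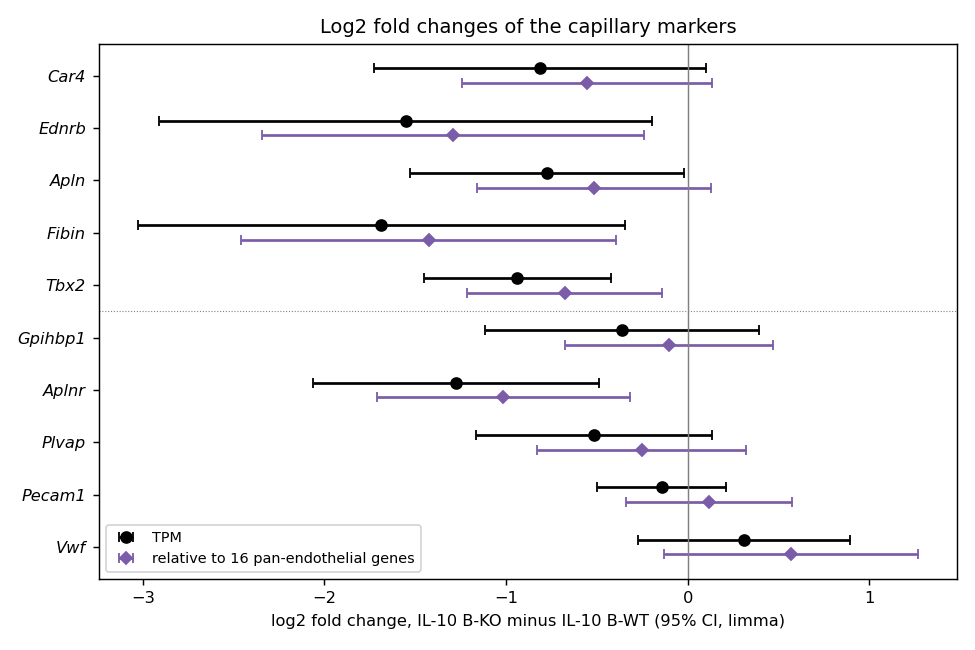
Log2 fold change of each marker (horizontal axis, IL-10 B-KO minus IL-10 B-WT, 95% CI) on TPM (black circles) and after subtracting the mean of the 16 pan-endothelial genes in each lung (purple diamonds), with aerocyte markers above the dotted line. The intervals of Ednrb, Fibin, Tbx2 and Aplnr lie below 0 in both, while Apln lies below 0 on TPM alone.

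An aerocyte and a general capillary marker were also compared within each lung, as a log2 ratio of TPM + 1, in which the library's scale cancels except for the added 1. The mean log2 ratio of Car4 to Gpihbp1 was -0.00 ± 0.52 (SD, n = 6) in IL-10 B-WT and -0.46 ± 0.56 (SD, n = 6) in IL-10 B-KO, a difference of -0.45 (exact permutation p = 0.193). IL-10 B-WT 5 stood apart at 1.03, whereas the other IL-10 B-WT lungs lay between -0.36 and -0.04. Without that lung the difference was -0.25.

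The ratio of Ednrb to Aplnr was 0.16 ± 1.18 (SD, n = 6) in IL-10 B-WT and -0.11 ± 0.53 (SD, n = 6) in IL-10 B-KO, a difference of -0.28 (exact permutation p = 0.626). IL-10 B-WT 1 was the lowest lung at -2.005, and without it the difference was -0.71 (exact permutation p = 0.0779). The ratio of the ligand Apln to its receptor Aplnr was -0.03 ± 0.77 (SD, n = 6) in IL-10 B-WT and 0.47 ± 0.91 (SD, n = 6) in IL-10 B-KO, a difference of 0.50 (exact permutation p = 0.333). The highest ratios of ligand to receptor were those of IL-10 B-KO 5 (1.63) and 6 (1.42), the lungs with the least Aplnr. None of the 3 ratios differed by more than the spread between lungs, with or without any single lung.

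**Figure D3:**
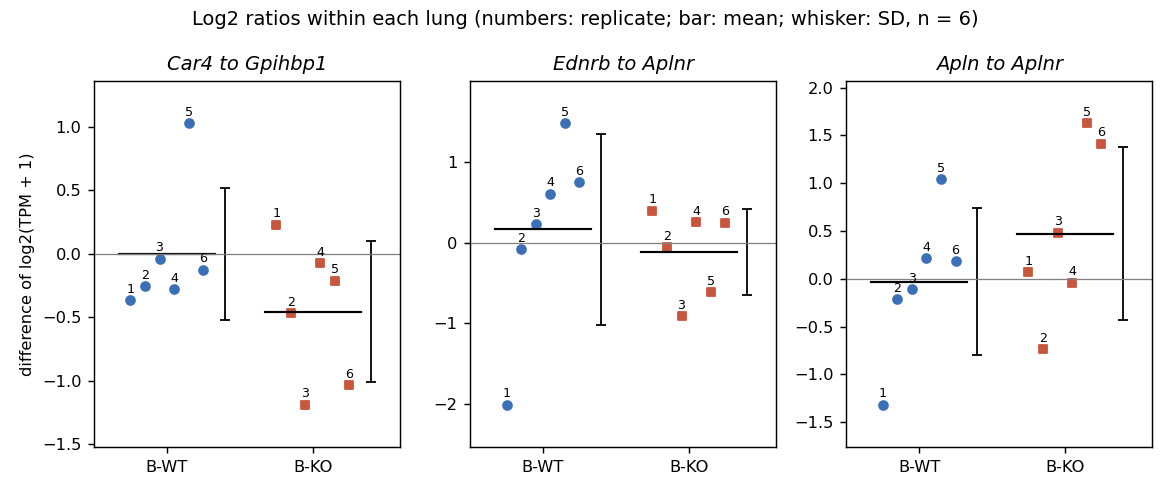
Difference of log2(TPM + 1) between the 2 named genes in each lung (vertical axis), with blue circles for IL-10 B-WT, red squares for IL-10 B-KO, the replicate number beside each point, a bar for the mean and a whisker for the SD (n = 6). The genotypes overlap in all 3 panels, with IL-10 B-WT 5 at 1.03 for Car4 to Gpihbp1 and IL-10 B-WT 1 lowest for Ednrb to Aplnr.

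Likeness between markers was measured over all 12 lungs together. After removing the genotype means, Pearson's r between log2 levels over the 12 lungs ranged from 0.43 to 0.97 over the 10 pairs of aerocyte markers (median 0.80), and from -0.20 to 0.78 over the 10 pairs of general or venous markers (median 0.52). Over the 25 pairs of an aerocyte with a general or venous marker, r ranged from -0.37 to 0.84 (median 0.62). That median was above the one of the general or venous pairs, so likeness did not follow the 2 classes throughout. These values are descriptions, since all genes of a lung share 1 library and its scale. Among 11146 genes with a mean TPM of at least 5, the gene most like Ednrb was Tmeff2 (r = 0.98), followed by Gstm1 (0.98) and Fibin (0.97), itself one of the 10. Tmeff2 was also nearest to Car4 (0.98), followed by Rprml (0.97) and Atp6v0e2 (0.97), and it was second for Fibin (0.98), between Egflam (0.98) and Tmem204 (0.98). Rprml also belonged to the list of further aerocyte markers.

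The other markers had different neighbours. Those of Tbx2 were Nkain4 (0.94), C1qtnf2 (0.93) and Neurl1b (0.93), and those of Apln were Inka1 (0.90), Cdh5 (0.86) and Nptx1 (0.86). The neighbours of Aplnr were Mtus1 (0.89), Cfap65 (0.89) and Gem (0.88), and those of Gpihbp1 were Cracr2b (0.96), Gm9910 (0.96) and B4galt4 (0.95). Plvap was most like Ece1 (0.97), the endothelin-converting enzyme, Eng (0.95), a co-receptor of the TGF-beta family in endothelium, and Vcl (0.91). Pecam1 was most like Parvb (0.93), Cdh5 (0.92) and Klf7 (0.91). Vwf was most like Rab44 (0.95), which was not a neighbour of any other marker.

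In each lung the summed TPM of the 5 aerocyte markers was set beside the sums of other cell types. Such sums mostly follow their most abundant genes. By mean TPM these were Car4 for the aerocyte markers (415 in IL-10 B-WT, 242 in IL-10 B-KO) and Ly6c2 for macrophages and monocytes (259 and 680). The aerocyte sum in IL-10 B-WT lungs 1 to 6 was 260, 465, 682, 799, 1070 and 998. In IL-10 B-KO lungs 1 to 6 it was 458, 715, 208, 425, 233 and 213. The 4 lungs with the lowest aerocyte sums were IL-10 B-KO 3, 6 and 5 and IL-10 B-WT 1, and these were also the 4 lungs with the highest sums of 7 macrophage and monocyte genes (Csf1r, Adgre1 and others), from 1497 to 1862. In the remaining 8 lungs the macrophage and monocyte sum was between 87.6 and 986. The same 4 lungs had the highest sums of 6 neutrophil genes (S100a8, S100a9 and others), from 2475 to 7510, against 274 to 1986 in the remaining 8.

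At the upper end, IL-10 B-KO 2, with the highest aerocyte sum of its genotype, had the lowest macrophage and monocyte sum of its genotype (203) and the lowest neutrophil sum (1039), and IL-10 B-WT 5, with the highest aerocyte sum of all, had the lowest of both (87.6 and 274). The order was not inverse throughout, since IL-10 B-WT 2 had the second lowest aerocyte sum of its genotype and the second lowest neutrophil sum of all 12 lungs (446). Between genotypes, 7 of 7 macrophage and monocyte genes had a higher mean in IL-10 B-KO, 5 of them at an unadjusted p of at most 0.05. At that threshold 6 of 6 neutrophil genes were higher, as were 1034 of all 15148 genes tested. None of these macrophage, monocyte or neutrophil genes passed the adjusted p. The part of the leukocyte levels in the differences of the capillary markers was not tested. The general or venous sum ranged from 1346 to 2349 in IL-10 B-WT and from 1144 to 2649 in IL-10 B-KO, with IL-10 B-KO 2 highest.

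**Figure D4:**
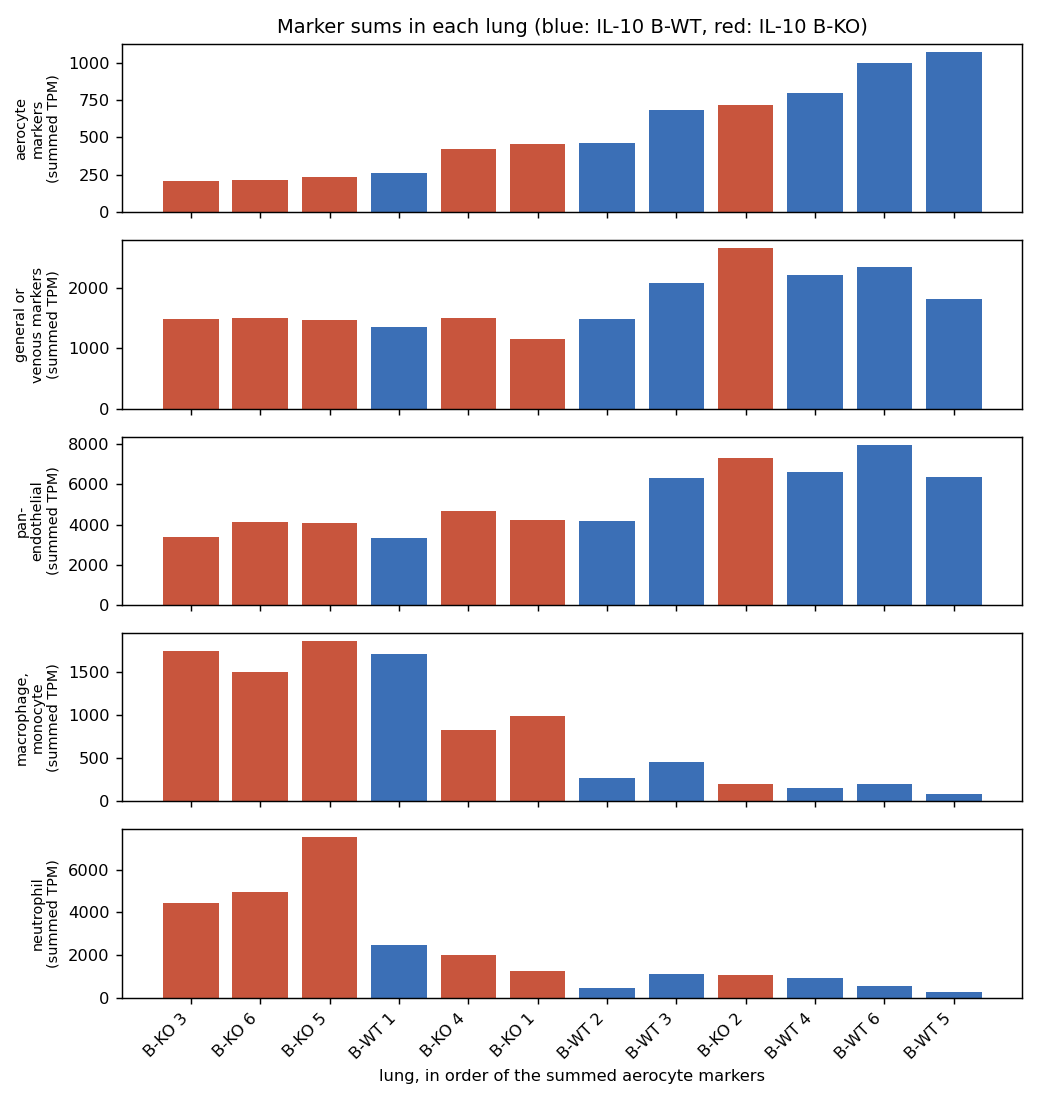
Summed TPM (vertical axes from 0) of the aerocyte markers, the general or venous markers, 16 pan-endothelial genes, 7 macrophage and monocyte genes and 6 neutrophil genes in each lung, ordered from left to right by the aerocyte sum, in blue for IL-10 B-WT and red for IL-10 B-KO. The 4 leftmost lungs, 1 of them IL-10 B-WT, have macrophage and monocyte sums from 1497 to 1862, and the other 8 have at most 986.

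Further markers of the same cells gave a second view of each cell type. Of 8 further aerocyte markers, 7 were lower in IL-10 B-KO and 4 of these had an unadjusted p of at most 0.05: Rprml (log2 fold change -1.52), Emp2 (-0.77), an epithelial and endothelial membrane protein, Kdr (-0.71), the main receptor of VEGF-A, and Nrp1 (-0.69), its co-receptor. Sirpa was higher (0.88, unadjusted p = 0.0355 in limma), and is also a marker of myeloid cells. Of 8 further general capillary markers 6 were lower, 2 of them at that threshold, Kit (-0.65), the receptor of stem cell factor, and Ptprb (-0.61), a vascular phosphatase. None of these genes passed the adjusted p.

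The summed TPM of the further aerocyte markers ranged from 1630 to 2222 in IL-10 B-WT and from 1300 to 1767 in IL-10 B-KO, and that of the further general capillary markers from 844 to 1269 and from 668 to 1365, with IL-10 B-KO 2 again highest in its genotype. The further aerocyte sum mostly followed Igfbp7 (mean 1040 TPM in IL-10 B-WT, 911 in IL-10 B-KO) and Emp2 (471 and 281). Igfbp7 itself differed little (-0.19, unadjusted p = 0.251 in limma). Of 6 arterial genes 4 were lower, with Efnb2, an ephrin of arteries and angiogenic sprouts, at -0.76 (unadjusted p = 0.0196 in limma). Of 6 venous genes 3 were lower and of 5 lymphatic genes 5, with none at an unadjusted p of at most 0.05 in either list. The median log2 fold change was -0.67 for the further aerocyte list, -0.49 for the further general capillary list, -0.05 for the arterial, 0.18 for the venous and -0.13 for the lymphatic list.

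**Figure D5:**
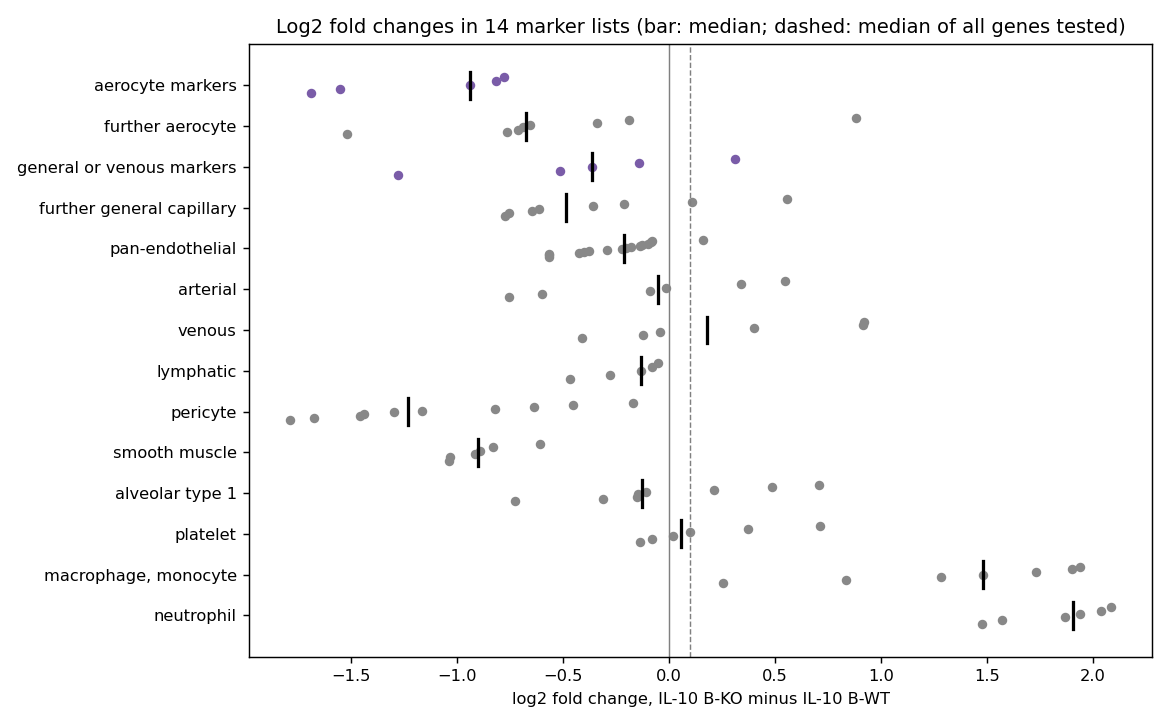
Log2 fold change of each tested gene (horizontal axis, IL-10 B-KO minus IL-10 B-WT) in each of 14 marker lists, with purple points for the 10 markers, grey points for other lists, a black bar for the list's median and a dashed line for the median of all genes tested (0.10). Among the lists shown, the medians run from -1.23 for pericytes through -0.94 for the aerocyte markers to 1.90 for neutrophils.

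Partners of the apelin and endothelin receptors were measured in the same lungs. Of 7 such genes 4 could be tested, since Apela (the other apelin receptor ligand), Edn2 and Ece2 did not pass the filter on low values. Ednra, the endothelin receptor of contractile cells, had a mean of 20.9 TPM in IL-10 B-WT against 11.7 in IL-10 B-KO (log2 fold change -0.91, unadjusted p = 0.00378 and adjusted p = 0.190 in limma). Edn3, a ligand of the type B receptor, had a log2 fold change of -1.08 (unadjusted p = 0.0105 in limma), with a mean of 5.82 against 2.22 TPM. Edn1, the main vasoconstrictor of the family, had a mean of 24.4 against 41.5 TPM (log2 fold change 0.51, unadjusted p = 0.214 in limma), and Ece1 had -0.14. None of these 4 genes passed the adjusted p in limma (0.294 for Edn3), and neither did Ednrb. Edn1 ranged from 11.8 to 87.2 TPM in IL-10 B-KO and from 14.2 to 30.3 in IL-10 B-WT. Whether receptors and ligands differed in direction was not tested.

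Partners of the other markers were taken by pathway. Of 6 tested genes around capillary lipolysis, among them Lpl, the enzyme that Gpihbp1 binds (0.63), and Cd36, a fatty acid receptor of capillaries (-0.13), 1 was lower and none had an unadjusted p of at most 0.05. Of 9 other carbonic anhydrases 5 were lower, and Car9, an enzyme induced by low oxygen, was the 1 at that threshold (0.58, with means of 0.948 and 1.92 TPM). Among 5 tested genes stored or acting with von Willebrand factor, Angpt2, a ligand of the Tie2 receptor, was lower (-0.72, unadjusted p = 0.00985 in limma), as was Esm1, a gene of angiogenic tip cells (-1.51, unadjusted p = 0.0321 in limma). Rab27a, which acts in granule release, was higher (0.66, unadjusted p = 0.0386 in limma). Of 6 platelet genes 2 were lower and none passed that threshold (median log2 fold change 0.06). No gene of these lists passed the adjusted p in limma. At an unadjusted p of at most 0.05, 5.71% of all genes tested were lower and 1034 of 15148 were higher.

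Cells next to the capillaries were examined by their own markers. Pericytes, the contractile cells on the outer capillary wall, had 10 of 10 genes lower, 8 of them at an unadjusted p of at most 0.05, and 3 fell past the adjusted p in limma, Trpc6 (-1.29, adjusted p = 0.0195), Notch3 (-1.78, adjusted p = 0.0236) and Pdgfrb (-1.44, adjusted p = 0.0456). The number past the adjusted p was 0 with no filter, quantile normalization, median centring or the replicate block and without IL-10 B-WT 4 or IL-10 B-KO 1, 3 or 5, it was 1 without IL-10 B-WT 2, 5 or 6, and it was 7 without IL-10 B-WT 1. The pericyte sum ranged from 260 to 661 TPM in IL-10 B-WT and from 81.3 to 309 in IL-10 B-KO. IL-10 B-WT 1 had the lowest pericyte sum of its genotype, and the highest in IL-10 B-KO was that of lung 4 and not of lung 2. Of 6 smooth muscle genes 6 were lower (median -0.90), 3 at that threshold, and of 8 fibroblast genes 6 (median -0.18), 2 at that threshold. Of 8 alveolar type 1 genes, those of the epithelial cells that aerocytes face, 5 were lower with a median of -0.13 and none at an unadjusted p of at most 0.05.

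Cell types farther from the capillaries were counted by the same rule, with an unadjusted p of at most 0.05 and none past the adjusted p unless stated. Among all 15148 genes tested, 865 were lower and 1034 higher at that threshold, and 36.8% had a log2 fold change below 0. Of 7 alveolar type 2 genes 7 were higher (median 0.74, 4 at that threshold), of 4 mesothelial genes 4 were higher (median 1.16, 3 at that threshold), and of 5 proliferation genes 5 were higher (median 1.03, 2 at that threshold). Of 5 cardiomyocyte genes, of heart or pulmonary vein muscle, 5 were lower (median -1.54, 1 at that threshold), as were 3 of 3 adipocyte genes (median -1.12, none) and 3 of 3 glial genes (median -0.55, 1). Of 6 B cell genes 6 were lower (median -2.45, all 6, and 1 past the adjusted p), and of 6 T and NK cell genes 2 were lower (median 0.13, none). The number of B cell genes past the adjusted p was 0 with no filter and without IL-10 B-WT 4 or 5 or IL-10 B-KO 1, 3 or 5, and 3 with array weights, the replicate block or without IL-10 B-KO 2.

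Checks of the libraries touch these results as follows. Il10 itself was between 0 and 0.88 TPM in IL-10 B-WT and between 0 and 0.58 in IL-10 B-KO. All values were below the 1 TPM of the filter, so they cannot show whether Il10 differed between the genotypes. By other assays, the paper reports lower IL-10 in the lungs and lavage fluid of IL-10 B-KO mice. Cd79a, the driver locus of the Cre, was between 15.3 and 259 TPM in IL-10 B-WT and between 0 and 5.73 in IL-10 B-KO. Of all genes tested, 75 passed an adjusted p of 0.05 and an absolute log2 fold change of 1 (0.495%), 71 of them lower in IL-10 B-KO. The mitochondrial share of TPM was 5.66 to 30.5% in IL-10 B-WT, with IL-10 B-WT 5 highest, and 4.63 to 15.8% in IL-10 B-KO. The sum of 5 erythroid genes (5 of 5 lower in IL-10 B-KO, median -1.29, none at an unadjusted p of at most 0.05) ranged from 2958 to 96325 TPM in IL-10 B-WT, lowest in lung 1 and highest in lung 5, and from 3523 to 22583 in IL-10 B-KO, so blood content differed between lungs in the same order as the aerocyte sum at both ends of IL-10 B-WT. The part of mitochondrial share and blood content in the values of the capillary markers was not tested.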

How the data were processed

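RNA-seq of 12 lungs (6 IL-10 B-KO, 6 IL-10 B-WT, grouped by the genotype label) was analyzed from 1 table. The authors deposited TPM values per gene, calculated with RSEM and rounded to 2 decimals, 1 column per library without pooling. The submitters' processing notes name fastp, HISAT, RSEM and GRCm38.p5; versions and the annotation release are not given in the sources used here. There were 0 unused columns of per-sample values. TPM keep no depth, so the reads behind a value are unknown, precision rests on the spread between lungs, and a large group of transcripts lowers the TPM of all others.

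A linear model with genotype as its single term was fitted to log2(TPM + 1) in limma (version 3.58.1, R version 4.3.3), with a trended prior variance. It covered the 15148 genes that reached 1 TPM in 6 or more libraries, and p-values were adjusted over all of these by Benjamini-Hochberg. Fold changes on this scale understate those of low genes. Single genes and ratios were also compared by two-sided exact permutation tests. A further fit subtracted the mean log2 level of 16 pan-endothelial genes from each library. P-values measure the spread between these lungs. The fit was first tested on simulated data. The rest was computed in SciPy 1.17.1, pandas 2.3.3 and NumPy 2.4.6 under Python 3.11.15 and drawn with matplotlib 3.10.9. Gene positions came from the GENCODE annotation of GRCm38 and promoters from RefSeq (GRCm38.p6).

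The 10 markers and the 28 gene lists were chosen with earlier results of these data known. Genes named were the 10 markers, members of the lists when a list is described, the 3 nearest genes of each marker by genotype-centred correlation (for Vwf the nearest alone, the rest not being reported here), and Il10 and Cd79a. Other settings tried were array weights, the replicate number as a block, each library left out in turn, a pseudocount of 0.1, filters at a mean of 5 TPM or none, and libraries rescaled without 394 immunoglobulin genes, centred on their median or normalized by quantiles.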

Additional observations from a re-analysis of the deposited data

Results flagged for a closer look

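In groups of 6 lungs, a lung was flagged where its gap to the nearest other lung relative to the group's range exceeded Dixon's 95% critical value. Of 26 groups of values checked (the 10 markers and 3 ratios in each genotype), 5 had such a lung. Chance flags about 1 in 20 only where values are normal and groups independent. IL-10 B-KO replicate 2 was flagged in 4 of the 5, as the highest lung of its genotype, with 61.8 TPM for Ednrb, 50.9 TPM for Fibin, 663 TPM for Gpihbp1 and 64.4 TPM for Aplnr. The markers were checked as TPM and not on the log2 scale. They also varied together over the lungs (r = 0.97 for Ednrb and Fibin), so these 4 flags are not separate events of that lung. The same lung had the lowest macrophage and monocyte sum (203 TPM) and the highest pan-endothelial sum (7304 TPM) of IL-10 B-KO. IL-10 B-WT replicate 5 was flagged for its log2 ratio of Car4 to Gpihbp1 of 1.03, and also had the highest mitochondrial share (30.5%) and the highest erythroid sum (96325 TPM) of the 12 lungs. The part of these properties in the flagged values was not tested.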

How the results depend on the processing

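Of 200 alternative values of the log2 fold changes of the 10 markers, 193 kept their direction and side of the adjusted threshold, 7 passed it and 0 changed sign; relative to the pan-endothelial genes the numbers were 188, 11 and 1. The reversal was Gpihbp1, at 0.035 without IL-10 B-KO replicate 5, with a range of -0.22 to 0.035 over the lungs left out. The number of markers past the adjusted p was 0 in the main analysis and 2 with array weights (Tbx2 and Aplnr), with a range of 0 to 4 when single lungs were left out: 4 without IL-10 B-WT replicate 1 (Tbx2, Ednrb, Apln and Fibin) and 1 without IL-10 B-KO replicate 2 (Aplnr). It was 5 at an unadjusted p of at most 0.05. The number lower relative to the pan-endothelial genes was 0, 8 with array weights (where 3.73% of all genes were lower and 10368 of 15148 were called) and 0 to 2 with single lungs left out (2 without IL-10 B-WT replicate 1, where 0.783% of all genes were lower). The 3 ratios stayed above p = 0.05 by the exact permutation test in all alternatives run. The cause of these changes was not tested. Of all genes tested, 75 were called, 6 without a filter, 27 without immunoglobulin genes, 39 with quantile normalization, 36 with median centring, 318 with array weights, and 15 (without IL-10 B-KO replicate 5) to 576 (without IL-10 B-WT replicate 1) with a lung left out. With the replicate number as a block (replicate block), 45 genes and 0 markers were called. Same-numbered lungs did not deviate together (r from -0.29 to 0.05 over the pairs, and 0 of 12 lungs matched its own number best), so the numbers were taken as names and not as pairs. TPM carry no depth, so no limit of detection can be given.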
